A study of Mus musculus with 96 samples.

Results

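Rybp and Yaf2 are the paralogous genes of one small family, and both were followed here through every RNA-seq comparison and every peak list of a study on RYBP in mouse embryonic stem cells (ESCs). They were chosen by name, as the gene the study manipulates and its paralog, and they are 2 of the 37620 genes listed in each of 7 count tables. Rybp (ENSMUSG00000072872) lies on the minus strand at chr6:100178560-100237435 of mm9, spans 58876 bp and has 5 exons with 4458 counted bases. Yaf2 (ENSMUSG00000022634) lies on the minus strand at chr15:93114709-93167366, spans 52658 bp and has 2 annotated transcripts with 1873 counted bases.

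RYBP (RING1 and YY1 binding protein) and YAF2 (YY1 associated factor) are small proteins with a zinc finger of the RanBP2 type near the amino terminus and a carboxy-terminal part that binds RING1A or RING1B, the ubiquitin ligases of Polycomb repressive complex 1 (PRC1). A variant PRC1 complex holds either RYBP or YAF2, where a canonical complex holds a CBX protein, and both kinds of complex act on lineage genes that ESCs keep silent. RYBP promotes the ubiquitylation of histone H2A by PRC1 and can also bind transcription factors such as YY1 and E2F family members.

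RNA-seq was available from 26 libraries, 4 in each table, with groups of 2. The Rybp knockout compared Rybp-/- with Rybp+/+ ESCs of the R7.15 line, which carries floxed Rybp and Rosa26::CreERT2, a Cre recombinase switched on by 4-hydroxytamoxifen (4-OHT). The Rybp-/- cells had received 5 µM 4-OHT for 4 days. In R1 ESCs, shRybp and shWdr5 were each compared with the same empty vector control, shEV. WT ESCs were compared with cells labelled TF-AA mutation, also R1, and the labels do not name the mutated protein. In J1 ESCs with Tet on.RYBP, a transgene switched on by doxycycline (DOX), DOX was compared with vehicle. In the rTRS line, which holds a DOX-inducible Rybp and Stat3 integration, DOX was compared with NTC. The phase disruption comparison set an RYBP with a 21 amino acid deletion (RYBP.21aa deletion) against WT RYBP, each overexpressed in RYBPfl/fl Rosa26::CreERT2 ESCs of the R7.15 line that had received 4-OHT. Peak lists came from ChIP-seq of H3K27ac, H3K4me3, WDR5 and STAT3 in Rybp+/+ and Rybp-/- ESCs and of RING1B in R1 ESCs with shEV or shStat3, a knockdown of Stat3. Lists of RING1B and STAT3 came also from Tet.Rybp.Stat3 cells with and without DOX, which the labels place in R1 and give the same genotype as rTRS, without saying whether they are the same line. All lines grew in medium with serum and LIF. No label says whether replicates came from separate cultures, so p-values measure only the spread between these libraries.

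The libraries held 14512857 to 81049618 counts in genes, and levels are given as CPM, counts per 1000000 counts in genes. The 10 ESC markers, among them Pou5f1, Sox2 and Nanog, were detected in every library with a summed level of 3662 to 9150 CPM. Summed levels were 3.23 to 34.4 CPM for 6 primitive endoderm markers, 4.09 to 49.3 CPM for 4 trophectoderm markers and 5.77 to 428.8 CPM for 6 fibroblast markers. These are bulk libraries, in which fewer cells of a type and less RNA per cell cannot be told apart.

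The kinship of the pair can be read in their transcripts. The coding sequence of Rybp has 687 bp and that of Yaf2 540 bp. Aligned with blastn, the transcripts matched in a stretch of 246 bp with 77.2% identity and in another of 83 bp with 79.5% identity, and the longest run of bases that both transcripts share had 23 bases. The shorter stretch, which holds this run, is shown because it is the part most alike in the pair. Capitals mark the shared run, and both sequences come from the GENCODE transcripts (mm9), read 5′ to 3′ along the coding strand.
Rybp, transcript bases 609 to 691: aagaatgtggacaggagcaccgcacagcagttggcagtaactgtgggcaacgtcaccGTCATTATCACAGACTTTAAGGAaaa
Yaf2, transcript bases 342 to 424: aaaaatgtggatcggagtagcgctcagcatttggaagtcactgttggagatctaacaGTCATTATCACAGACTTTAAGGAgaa
No longer run is shared by the pair of transcripts compared, so a longer exact read cannot stem from both of them. The other annotated transcript of Yaf2 was not compared.

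A near-identical copy of the whole Rybp transcript lies elsewhere in the genome, so the Rybp count is uncertain to that extent. A match with 99.4% identity over 4459 aligned bases was found at chr13:66108511-66112968 on the plus strand, and its coding part is annotated as Gm6910 (ENSMUSG00000055763), a retrotransposed pseudogene of 687 bp at chr13:66108671-66109357. Of all windows of 100 bases along the Rybp transcript, 65.5% occur unchanged in this copy (78.6% of windows of 50 bases and 57.9% of windows of 150 bases), and reads from such windows have no unique place. Reads with more than 1 place in the genome made up 13.9% to 14.9% of the aligned reads in the shRybp table and 18.6% to 19.4% in the rTRS table, against 4.3% to 6.1% in the other tables that list them, and were not counted in any gene. A shorter match to the end of the transcript, 785 bases with 97.7% identity, lies at chr2:79069287-79070071. Matches on a further chromosome were left out for both genes, so copies there are not covered. Outside that chromosome and its own locus, no match of at least 100 bases and 90% identity was found for Yaf2. Gm6910 was named after its values were seen. It had 34 and 33 counts in Rybp+/+ and 0 in both Rybp-/- libraries, against 8680, 8867, 1889 and 1923 counts of Rybp. Its highest counts, 548 and 567, were in the WT.RYBP libraries, where Rybp had 11908 and 12078.

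In the control groups without an active transgene, Rybp RNA was several times as abundant as Yaf2 RNA. Per kb of counted length, Rybp stood at 24.8 and 24.7 CPM in Rybp+/+ ESCs, and Yaf2 at 3.88 and 4.12 CPM. The ratio of Rybp to Yaf2 per length was 6.39 and 6.00 in these libraries, 6.27 and 7.22 in shEV and 7.33 and 9.60 in WT ESCs. It was 18.6 and 19.7 in the vehicle-treated J1 line and only 2.84 and 2.48 in rTRS NTC, so the controls differed from each other by more than their replicates did. The tables were normalized separately, so the order of levels between them is a description. Among the controls, Rybp was lowest in shEV (85.7 and 86.4 CPM), followed by Rybp+/+ (110.4 and 110.2), rTRS NTC (113.4 and 110.5), WT ESCs (122.4 and 138.9) and the J1 vehicle cells (135.0 and 145.3). Rybp+/+ and rTRS NTC differed by less than the spread of the rTRS NTC pair, and the ranges of WT ESCs and J1 vehicle cells overlapped. The order for Yaf2 was another one. Yaf2 was lowest in the J1 vehicle cells (3.05 and 3.10 CPM), then shEV (5.74 and 5.03), WT ESCs (7.02 and 6.08), Rybp+/+ (7.27 and 7.72) and rTRS NTC (16.8 and 18.7), with no overlap between neighbours. Among the 16955 genes tested in the knockout table, Rybp stood at the 76.8th percentile of level per length and Yaf2 at the 53.7th.

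**Figure D1:**
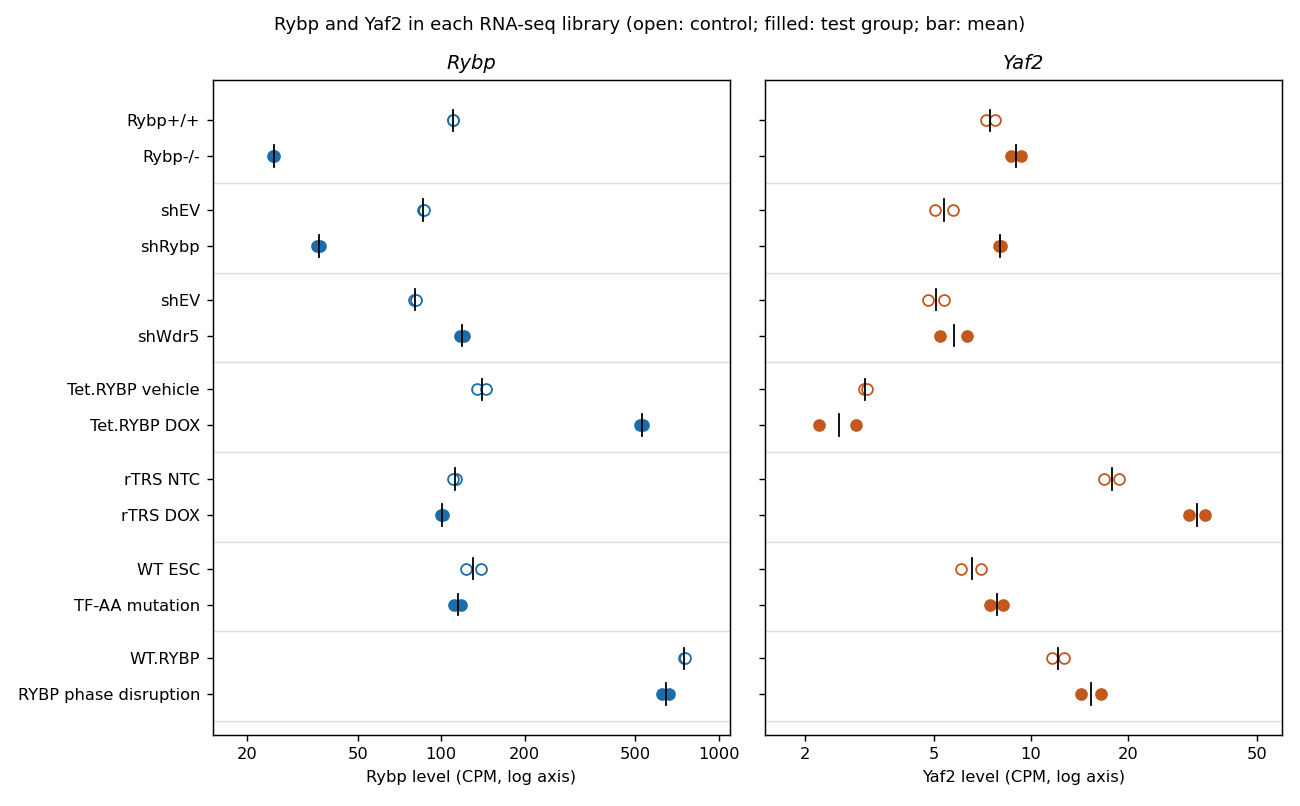
Level of Rybp and of Yaf2 in CPM (log axis) in each library of the 7 comparisons, with open points for the control group, filled points for the test group and a bar for the mean of 2 libraries. Rybp ranges from 24.8 CPM in Rybp-/- ESCs to 753.5 CPM in WT.RYBP, and Yaf2 from 2.21 CPM in J1 cells with DOX to 34.5 CPM in the libraries labelled rTRS DOX.

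Cre activation removed most but not all Rybp RNA, while Yaf2 RNA was a little higher. Rybp had 110.4 and 110.2 CPM in Rybp+/+ and 24.8 and 25.0 CPM in Rybp-/- ESCs. The groups lay far apart and the knockout libraries kept 0.226 of the control level. In edgeR's quasi-likelihood fit, with p-values adjusted by Benjamini-Hochberg over all genes tested, the log2 fold change of Rybp was -2.15 (SE 0.05, n = 2 against 2, adjusted p = 8.1e-27), the 36th lowest of 16955 genes. This gene was the target, so its fall checks the labels. Yaf2 had 7.27 and 7.72 CPM in Rybp+/+ and 8.66 and 9.30 CPM in Rybp-/-. Both knockout libraries were above both controls, by a gap somewhat wider than the spread within either group.
The log2 fold change of Yaf2 in the knockout was 0.26 (SE 0.10, 95% interval 0.05 to 0.47), a fold of 1.20, with an adjusted p of 0.039 in edgeR's quasi-likelihood fit, where 45.5% of all genes tested were called. This call was not stable. It was lost without Rybp+/+ replicate 1 (log2 fold change 0.21, edgeR adjusted p = 0.18), without Rybp-/- replicate 1 (0.31, adjusted p = 0.051) and without Rybp-/- replicate 2 (0.21, adjusted p = 0.23). All 6 fibroblast markers were higher in Rybp-/- ESCs, with a summed level of 115.1 to 120.8 CPM against 56.5 to 57.5 CPM, and 3 of 4 trophectoderm markers were higher (5.29 to 5.39 against 4.09 to 4.42 CPM). Of the 6 primitive endoderm markers 2 were higher and 0 lower (12.1 to 13.0 against 7.34 to 8.03 CPM). Their part in the Yaf2 difference was not tested.

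Knockdown of Rybp gave a smaller loss of Rybp and the clearer rise of Yaf2. Rybp had 85.7 and 86.4 CPM in shEV and 35.8 and 36.6 CPM in shRybp. The knockdown libraries lay close together at 0.42 of the control level, and the log2 fold change was -1.25 (SE 0.06, edgeR adjusted p = 4.5e-12). Yaf2 had 5.74 and 5.03 CPM in shEV and 7.95 and 8.09 CPM in shRybp, with no overlap. Its log2 fold change was 0.57 (SE 0.15, 95% interval 0.27 to 0.88), a fold of 1.49 (edgeR adjusted p = 0.0028), in a comparison where 52.7% of the genes tested were called. Behind it stood 227 and 185 counts against 439 and 363. The call held in edgeR with each library left out in turn and in DESeq2. All 4 marker lists moved in the same comparison. ESC markers summed to 8826 to 9150 CPM in shEV and 7445 to 7467 CPM in shRybp (5 lower and 4 higher), and primitive endoderm markers to 16.3 to 19.4 and 30.0 to 31.2 CPM (5 of 6 higher and 1 lower). Trophectoderm markers summed to 16.1 to 18.6 and 22.3 to 24.0 CPM (2 of 4 higher and 1 lower), and the 4 of 6 fibroblast markers that passed the filter were higher. Their part was not tested.

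The losses of Rybp and the changes of Yaf2 were also compared between the knockout and the knockdown, which share no library. Rybp fell less in the knockdown, by a difference in log2 fold change of 0.87 (SE 0.07, 95% interval 0.73 to 1.02, adjusted p = 1.2e-09 for the interaction in edgeR, where 40.5% of genes were called). For Yaf2 the difference was 0.29 (SE 0.17, 95% interval -0.07 to 0.65, adjusted p = 0.20), so a larger rise in the knockdown was not shown. Because Rybp fell and Yaf2 did not, the ratio of Rybp to Yaf2 per length went from 6.39 and 6.00 to 1.20 and 1.13 in the knockout. In the knockdown it went from 6.27 and 7.22 to 1.89 and 1.90.

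Knockdown of Wdr5, the gene of a WD40 scaffold protein found in H3K4 methyltransferase complexes, was followed by more Rybp RNA. Wdr5 itself fell from 349.8 and 342.9 CPM to 60.1 and 58.2 CPM, a log2 fold change of -2.55 (edgeR adjusted p = 4.7e-21). Rybp had 79.9 and 81.3 CPM in shEV and 120.6 and 116.7 CPM in shWdr5. Both shWdr5 libraries were above both controls by many times the spread within the groups. The log2 fold change of Rybp was 0.56 (SE 0.05, 95% interval 0.45 to 0.67), a fold of 1.47 (edgeR adjusted p = 3.8e-09). Such calls were common here, with 63% of all genes tested called and 31.5% of all genes tested higher. Yaf2 had 5.38 and 4.81 CPM in shEV and 5.23 and 6.34 CPM in shWdr5, and the groups overlapped. Its log2 fold change of 0.18 (95% interval -0.17 to 0.53, edgeR adjusted p = 0.36) rests on 95 to 132 counts per library. The shEV libraries are the controls of both knockdowns and hold fewer counts in this table (1709 and 1606 of Rybp) than in the table of shRybp (3389 and 3178), so the values of the pair of comparisons share their controls. ESC markers summed to 8305 to 8613 CPM in shEV and 7065 to 7111 CPM in shWdr5, with 7 of 10 lower and 2 higher. The 6 primitive endoderm markers summed to 16.0 to 18.7 CPM and 33.5 to 34.4 CPM, with 3 higher and 1 lower. Their part in the Rybp difference was not tested.

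Induction of the RYBP transgene in J1 cells raised the counts on Rybp and left Yaf2 without a detectable change. Rybp had 135.0 and 145.3 CPM with vehicle and 521.6 and 534.9 CPM with DOX. The groups stood far apart, at a fold of 3.77 and a log2 fold change of 1.91 (SE 0.05, edgeR adjusted p = 7e-24). Counts cannot separate transgene from endogenous Rybp RNA. Yaf2 had 3.05 and 3.10 CPM with vehicle and 2.21 and 2.87 CPM with DOX. Both DOX libraries were lower, but one by little, and the log2 fold change of -0.27 (SE 0.29, 95% interval -0.87 to 0.32, edgeR adjusted p = 0.69) rests on 69 to 110 counts per library. Only 6.02% of the genes tested were called here, 3.63% as higher and 2.39% as lower. This share rests on 899 genes, a count that was 1566 and 1467 without vehicle replicate 1 and 2, and 406 and 409 without DOX replicate 1 and 2. The summed primitive endoderm markers were at 6.37 to 6.73 CPM with vehicle and 3.23 to 4.16 CPM with DOX, where edgeR called 0 of the 4 tested, with 2 at an unadjusted p under 0.05, and DESeq2 called 0. Their part was not tested. The ratio per length rose from 18.6 and 19.7 to 99.3 and 78.3.

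The libraries labelled rTRS DOX did not hold more Rybp than rTRS NTC, which goes against their label. The column read as replicate 2 of rTRS DOX bears another prefix (S5) than the rest of its table and was assigned by its being the only second DOX column there, so whether it is the same line is not certain. Rybp had 113.4 and 110.5 CPM in rTRS NTC and 101.8 and 99.8 CPM in the libraries labelled rTRS DOX. The groups did not overlap and the labelled DOX libraries were the lower ones, with a log2 fold change of -0.15 (SE 0.07, 95% interval -0.29 to -0.01, edgeR adjusted p = 0.076). Without that replicate 2 it was -0.14 (edgeR adjusted p = 0.27). Stat3, the gene of the other transgene, rose by little, from 158.8 and 172.4 CPM to 191.0 and 188.5 CPM, a fold of 1.15 (edgeR adjusted p = 0.026). For the J1 cells the log2 fold change of Rybp was larger by 2.09 (SE 0.08, 95% interval 1.92 to 2.26, edgeR interaction adjusted p = 3e-12, with 29% of genes called).
Yaf2 gave its largest rise in the same libraries. It had 16.8 and 18.7 CPM in rTRS NTC and 30.7 and 34.5 CPM in the libraries labelled rTRS DOX. Both of these were well above both controls. The log2 fold change was 0.88 (SE 0.10, 95% interval 0.65 to 1.10), a fold of 1.83 (edgeR adjusted p = 2.1e-05) and 0.79 without the replicate 2 of uncertain line (edgeR adjusted p = 2.1e-08), in a comparison that called 43.4% of all genes tested, 23% as higher and 20.4% as lower. The change of Yaf2 differed from that of the J1 cells, with an interaction of -1.12 (SE 0.22, 95% interval -1.59 to -0.65, edgeR adjusted p = 0.00095). Markers of cell state moved with it. The summed ESC markers were at 5670 to 5934 CPM in rTRS NTC and 3703 to 3948 CPM in the libraries labelled rTRS DOX, with 8 of 10 lower and 0 higher. The 4 trophectoderm markers went from 10.4 to 12.3 CPM to 43.0 to 49.3 CPM, and the 3 that passed the filter were all higher. The primitive endoderm markers summed to 6.94 to 8.65 CPM and to 19.6 to 20.7 CPM, with 1 called higher and 1 lower. Their part in the rise of Yaf2 was not tested. The ratio of Rybp to Yaf2 per length fell from 2.84 and 2.48 to 1.39 and 1.22, close to that of Rybp-/- ESCs although Rybp RNA itself was far above the level of those cells.

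In cells with the TF-AA mutation neither gene passed the test. Rybp had 122.4 and 138.9 CPM in WT ESCs and 111.6 and 118.1 CPM with the mutation. The mutant libraries were the lower ones, but the WT pair was wide, and the log2 fold change was -0.19 (SE 0.08, 95% interval -0.36 to -0.01, edgeR adjusted p = 0.096). It passed without WT ESC replicate 1 (-0.28, edgeR adjusted p = 0.0044). Yaf2 had 7.02 and 6.08 CPM in WT ESCs and 7.46 and 8.22 CPM with the mutation. Both mutant libraries were higher, at a log2 fold change of 0.26 (SE 0.17, 95% interval -0.10 to 0.62, edgeR adjusted p = 0.29), while 30.5% of all genes tested were called, 14.4% as higher and 16.1% as lower. The summed primitive endoderm markers were at 10.5 to 10.6 CPM in WT ESCs and 19.0 to 19.9 CPM with the mutation, and the fibroblast markers at 11.0 to 11.7 and 24.2 to 24.7 CPM. Their part was not tested.

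The phase disruption libraries, in which both arms carry an overexpressed RYBP, held the most Rybp of all. Rybp had 749.3 and 753.5 CPM with WT RYBP and 661.6 and 626.3 CPM with the deletion form. The groups did not overlap, and the log2 fold change was -0.22 (SE 0.04, edgeR adjusted p = 6.8e-05), a fold of 0.857. The deletion form is shorter by design and can give fewer counts at an equal RNA level. The part of this in the fall was not tested. Gm6910 moved alike, from 34.5 and 35.4 CPM to 28.7 and 28.3 CPM. Yaf2 had 11.6 and 12.7 CPM with WT RYBP and 16.5 and 14.3 CPM with the deletion form. The deletion libraries were both higher but apart from each other by more than the gap between the groups. Its log2 fold change was 0.34 (SE 0.13, 95% interval 0.07 to 0.61), a fold of 1.26 (edgeR adjusted p = 0.047), where 33% of genes were called, 16.1% as higher and 17% as lower. The call of Yaf2 was lost without WT.RYBP replicate 1 (0.27, edgeR adjusted p = 0.25), without WT.RYBP replicate 2 (0.40, adjusted p = 0.075) and without phase disruption replicate 1 (0.23, adjusted p = 0.30). Fibroblast markers were high in both arms and moved with the comparison. They summed to 423.1 to 428.8 CPM with WT RYBP and 342.2 to 365.7 CPM with the deletion form, with 3 of 6 lower and 0 higher. Primitive endoderm markers summed to 14.35 to 17.62 CPM with WT RYBP and 19.97 to 21.8 CPM with the deletion form, with 1 higher and 0 lower. Their part was not tested.

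**Figure D2:**
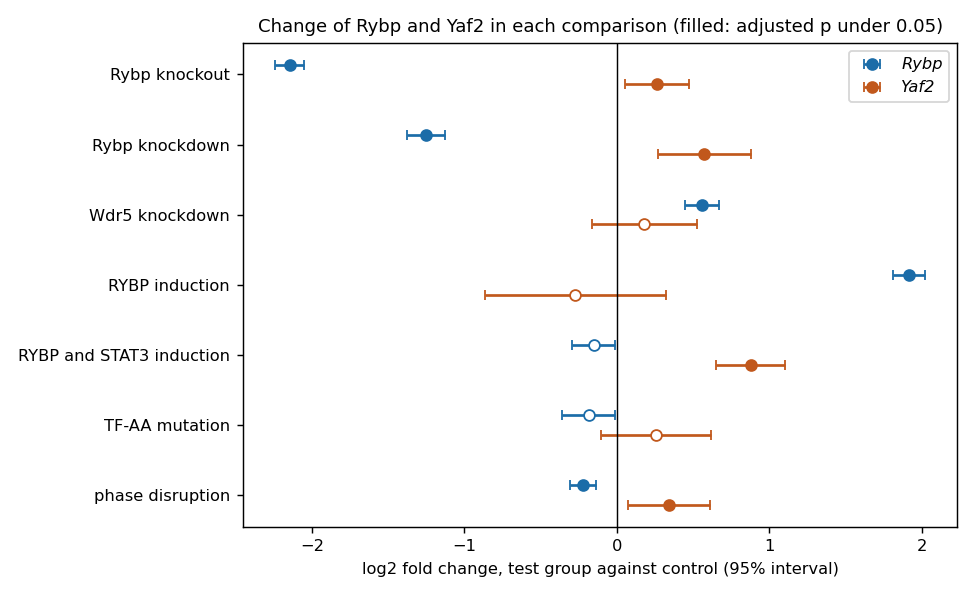
Log2 fold change of Rybp and of Yaf2 in each of the 7 comparisons, with 95% intervals from edgeR, filled where the adjusted p was under 0.05. Yaf2 lies above 0 in all comparisons but the RYBP induction in J1 cells, and its interval spans 0 in the Wdr5 knockdown, the RYBP induction and the TF-AA mutation.

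Genes that followed each member most closely over 24 libraries, those of the 6 tables that share no library, were sought among 13254 genes by Spearman's correlation of log2 CPM centred within each table. The libraries of one table share their line and preparation, so these values are a description. Closest to Rybp were Mtap1b (rho = 0.968), a microtubule-associated protein gene, Mnd1 (0.894), Mdc1 (0.889), Diap1 (0.879) and Prkci (0.879). Closest to Yaf2 were Tes (0.956), P2rx4 (0.936), Unc5b (0.925), 9830001H06Rik (0.923) and Krt8 (0.917), a keratin gene of simple epithelia. Between Rybp and Yaf2 themselves rho was -0.665, a value to which the knockout and knockdown of Rybp contribute by design.

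The partners of the pair in variant PRC1 changed in both directions. Of 29 genes, all tested, 7 were higher and 11 lower in the knockout, where 22.8% of all genes were higher and 22.7% lower, and the median log2 fold change was -0.04. E2f6, a repressor of the E2F family found in the PCGF6 complex, was at 0.64 (edgeR adjusted p = 1.1e-10) and Bcor, of the PCGF1 complex, at 0.42. Kdm2b, which brings the PCGF1 complex to CpG islands, was at -0.60 (edgeR adjusted p = 6.4e-15) and Auts2 at -0.60. In the knockdown 8 were higher and 18 lower (26.8% and 26% of all genes), with a median of -0.23. Pcgf5 (0.86) and Bmi1 (0.85) led the rises, and Pcgf2 (-0.71) and Kdm2b (-0.70) the falls. The Wdr5 knockdown raised 13 and lowered 7 (31.5% of all genes in each direction), Wdr5 among the latter, and Bmi1 (1.81) and Pcgf3 (1.25) rose most. In the libraries labelled rTRS DOX 9 were higher and 10 lower (23% and 20.4% of all genes), and with the TF-AA mutation 4 and 9 (14.4% and 16.1%). In the phase disruption 4 were higher and 13 lower (16.1% and 17% of all genes), where Pcgf5 was at 0.73, Bmi1 at -0.72 and Kdm2b at -0.68. After RYBP induction in J1 cells edgeR called 0 of the 29, beside 3.63% of all genes as higher and 2.39% as lower. Of the 29, 8 had an unadjusted edgeR p under 0.05, and DESeq2 called 2.

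Canonical PRC1, whose CBX proteins take the place of RYBP and YAF2 on RING1, was represented by 10 genes. In the knockout 4 were higher and 4 lower, beside 22.8% and 22.7% of all genes. Phc2, a polyhomeotic subunit, was at 0.88 (edgeR adjusted p = 1.3e-14) and Phc1, another polyhomeotic subunit, at -0.44 (edgeR adjusted p = 1.8e-14). Phc2 was also at 0.69 in the knockdown, 0.92 in the Wdr5 knockdown, 0.96 in the libraries labelled rTRS DOX and 0.74 in the phase disruption. Each of these passed the edgeR test. It was not called after RYBP induction in J1 cells (-0.18, edgeR adjusted p = 0.41) or with the TF-AA mutation (0.08, edgeR adjusted p = 0.64). Scml2 rose from 0.758 to 11.5 CPM with the TF-AA mutation, a log2 fold change of 3.92 (edgeR adjusted p = 1.2e-10).

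Among 12 genes whose products are known to bind RYBP or YAF2 in other settings, which count E2f6 a second time, 5 were higher and 2 lower in the knockout (22.8% and 22.7% of all genes). In the Rybp knockdown 3 were higher and 4 lower (26.8% and 26%), and in the Wdr5 knockdown 3 and 7 (31.5% each). Mycn, a MYC family factor, was at -0.70 in the knockout (edgeR adjusted p = 1.3e-17). It was the 1 gene of the list called after RYBP induction in J1 cells, at -0.18 (edgeR adjusted p = 0.049). That comparison called 3.63% of all genes as higher and 2.39% as lower. Mdm2, the ubiquitin ligase of p53, was at 1.53 with shRybp and 2.37 with shWdr5, which share their controls. Yy1, the factor that gave both proteins their names, was at -1.02 with shRybp (edgeR adjusted p = 1.1e-11) and E2f2 at -1.47. Neither was called in the knockout, where Yy1 was at -0.03 (edgeR adjusted p = 0.46) and E2f2 at 0.12 (edgeR adjusted p = 0.44). Of 14 other genes with a RanBP2-type zinc finger, which share only this fold with the pair, 1 was higher and 2 lower in the knockout (22.8% and 22.7% of all genes), and 2 were higher and 9 lower in the knockdown (26.8% and 26%).

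At the promoters, taken as 2.5 kb on either side of the start site, both genes carried peaks of nearly all antibodies. Peaks were called in 14 lists, each without replicates, so no test was made between them. The H3K27ac, H3K4me3 and WDR5 lists and those of the Tet.Rybp.Stat3 cells come from merged replicates, and the STAT3 lists of R7.15 cells and the RING1B lists of shEV and shStat3 from 1 sample each. The Rybp promoter held a peak in 13 lists and the Yaf2 promoter in 12. Such peaks are common, since the share of protein-coding promoters with one was 65.7% and 65.8% for H3K4me3, 39.4% to 52.4% for RING1B and 44.8% and 47.2% for WDR5, but 6.93% and 5.89% for STAT3 in Rybp+/+ and Rybp-/- ESCs. Fold enrichment is given as the authors' peak caller wrote it, with its percentile within its own list.
H3K27ac, a mark of active promoters and enhancers, separated the pair. Its peak at Rybp had a fold enrichment of 33.0 in Rybp+/+ (98.0th percentile) and 32.7 in Rybp-/- ESCs (98.7th). At Yaf2 it had 3.06 in Rybp+/+ (16.1th percentile) and no peak in Rybp-/-, and the body of Yaf2 held no H3K27ac peak in either genotype. H3K27ac peaks lay at 49.5% and 52.4% of the 22380 protein-coding promoters in the lists of Rybp+/+ and Rybp-/-.
RING1B, the catalytic subunit of PRC1, was the stronger at Yaf2. Its peak there had a fold enrichment of 14.6 in shEV (83.7th percentile) and 16.8 in shStat3, and 19.6 and 13.8 in Tet.Rybp.Stat3 cells without and with DOX. At Rybp the values were 8.03, 7.56, 8.78 and 7.73, between the 64.7th and the 72.5th percentile. The RING1B peaks at Yaf2 were wide, with 2099 to 2663 bp, while those at Rybp had 531 to 884 bp in all lists but shEV (2424 bp).
H3K4me3, a mark of promoters with a CpG island or active transcription, was present at both. Fold enrichment was 43.5 in Rybp+/+ and 51.1 in Rybp-/- at Rybp, and 28.2 and 47.2 at Yaf2 (76.3rd and 90.6th percentile). WDR5 peaks were above the median of their list at Rybp (6.74 and 6.91, 70.2th and 71.3th percentile) and at the low end at Yaf2 (3.90 and 2.87, 21.7th and 4.2th). STAT3 gave peaks at Rybp in Rybp+/+ (4.76, 65.3th percentile) and Rybp-/- (3.45, 17.6th), and at Yaf2 in Rybp-/- (3.77, 28.6th). In Tet.Rybp.Stat3 cells a STAT3 peak was called at Rybp with DOX only (7.23, 87.7th percentile) and at Yaf2 in both states (6.84 without and 6.61 with DOX, 75.6th and 83.8th). The share of protein-coding promoters with a STAT3 peak was 54.9% with DOX and 8.31% without, so the peak at Rybp is among many.

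**Figure D3:**
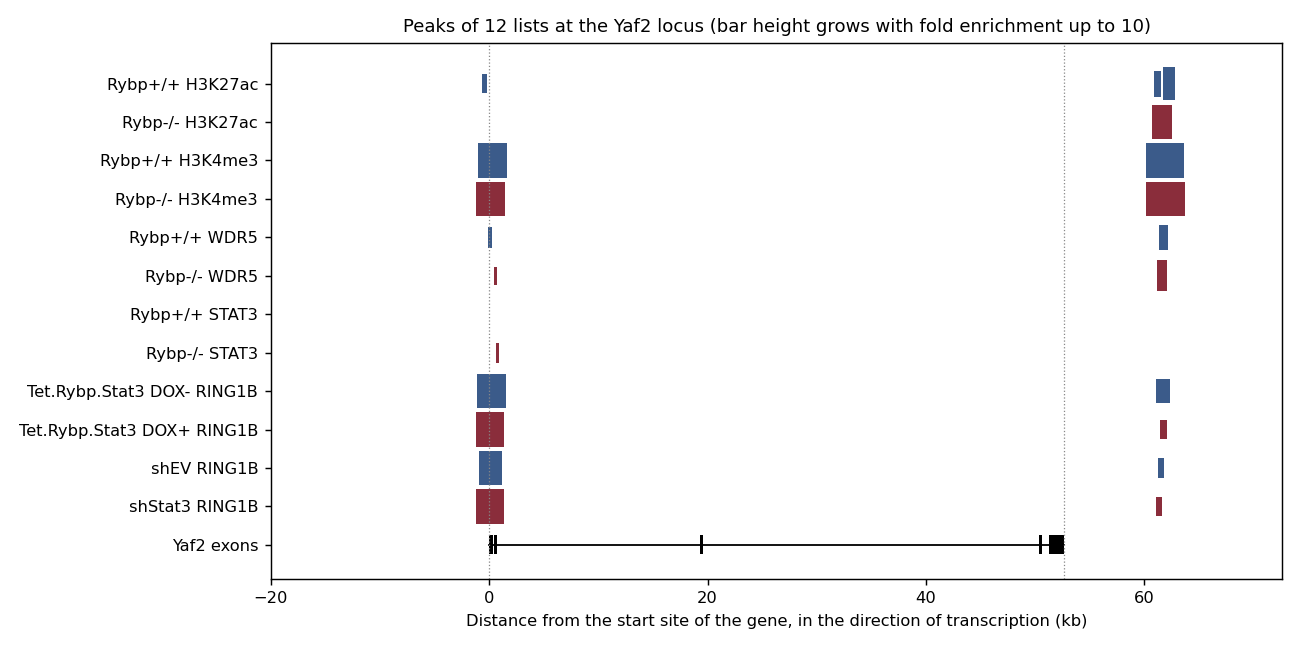
Peaks of the lists along Yaf2 and 20 kb on either side, without the STAT3 lists of Tet.Rybp.Stat3 cells. The axis gives the distance in kb from the start site in the direction of transcription, with the exons in the bottom row. Red marks Rybp-/-, DOX+ and shStat3. Peaks gather at the start site and about 10 kb past the end of the gene, near the start of Gxylt1, and none of H3K27ac lies in the gene body.

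The whole span of Rybp, in contrast, held 26 H3K27ac peaks in each genotype, those at its promoter included. These covered 60.6% of the gene in Rybp+/+ and 35.8% in Rybp-/- ESCs. Outside the promoter, the strongest H3K4me3 peak lay at the 3′ end of the gene, over exons 3 to 5. It was a peak of 3781 bp in Rybp+/+ ESCs (chr6:100182244-100186024, fold enrichment 26.6, 74.9th percentile), with a WDR5 peak inside it (chr6:100182863-100183198, fold enrichment 2.66, the 1.4th percentile). In Rybp-/- ESCs the H3K4me3 peak had 2121 bp (chr6:100183480-100185600, fold enrichment 12.0) and lay upstream of exon 3. No peak of any Rybp-/- list lay between chr6:100178578 and chr6:100183479, 4902 bp that hold exons 3 and 4 and all but the last bases of exon 5, against 3 peaks of Rybp+/+ lists. The ends of this stretch were set by the nearest Rybp-/- peaks, one of which, an H3K4me3 peak at chr6:100177527-100178577, reaches the end of exon 5. The labels used here do not state which exons are floxed, and whether these exons were removed was not tested. Exons 1 and 2 hold 7.2% of the counted bases of Rybp, and the Rybp-/- libraries kept 0.226 of its level. Exon 4 is shown with its surroundings because the highest points of the H3K4me3 and WDR5 peaks of Rybp+/+ ESCs, at chr6:100182869 and chr6:100182876, both lie in it. Its 200 bp window on mm9 (minus strand) holds 3 CG dinucleotides and 42% G or C, and 89.9% of the 39050 H3K4me3 summits of the list have at least as many CG, with a median of 8. Capitals mark the exon of 99 bp.
Rybp exon 4, chr6:100182769-100182968: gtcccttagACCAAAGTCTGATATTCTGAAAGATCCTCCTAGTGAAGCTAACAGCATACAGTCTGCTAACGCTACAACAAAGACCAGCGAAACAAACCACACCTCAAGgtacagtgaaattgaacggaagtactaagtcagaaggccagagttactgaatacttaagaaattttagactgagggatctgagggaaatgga

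**Figure D4:**
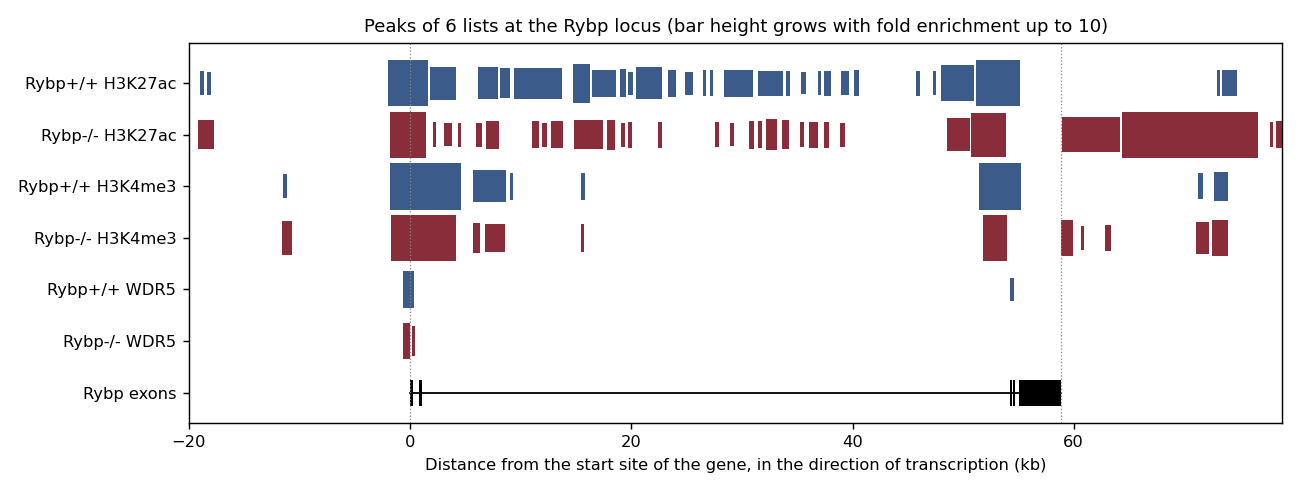
Peaks of the H3K27ac, H3K4me3 and WDR5 lists along Rybp and 20 kb on either side. The axis gives the distance in kb from the start site in the direction of transcription, with the exons in the bottom row. Blue marks Rybp+/+ and red Rybp-/-. In Rybp-/- ESCs no peak lies over exons 3 and 4 or over exon 5 beyond its last bases, and H3K27ac peaks cover 91.9% of the 20 kb past the gene.

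Past the 3′ end of Rybp the H3K27ac lists differed widely. In the 20 kb after the gene, peaks covered 1616 bp in Rybp+/+ and 18388 bp in Rybp-/- ESCs, or 8.1% and 91.9%. Most of it lay in a peak of 12264 bp (chr6:100160816-100173079, fold enrichment 13.5, 90.7th percentile) and in one of 5265 bp (chr6:100173240-100178504, fold enrichment 6.27). This gain of 16772 bp was rank 1 of 22367 protein-coding genes measured in the same way, whose median difference was 0 bp. The ranking was made after the values were seen. H3K4me3 gained 2614 bp there, rank 2 of the same genes, with 1749 bp in Rybp+/+ and 4363 bp in Rybp-/-. Farther on, the 100 kb past the gene held 4255 bp of H3K27ac peaks in Rybp+/+ and 49742 bp in Rybp-/-, and 200 kb held 4255 and 52989 bp. The same 100 kb past Yaf2 held 3571 and 3679 bp. The lists have no replicates and give no read depth, so the size of this difference has no error.

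**Figure D5:**
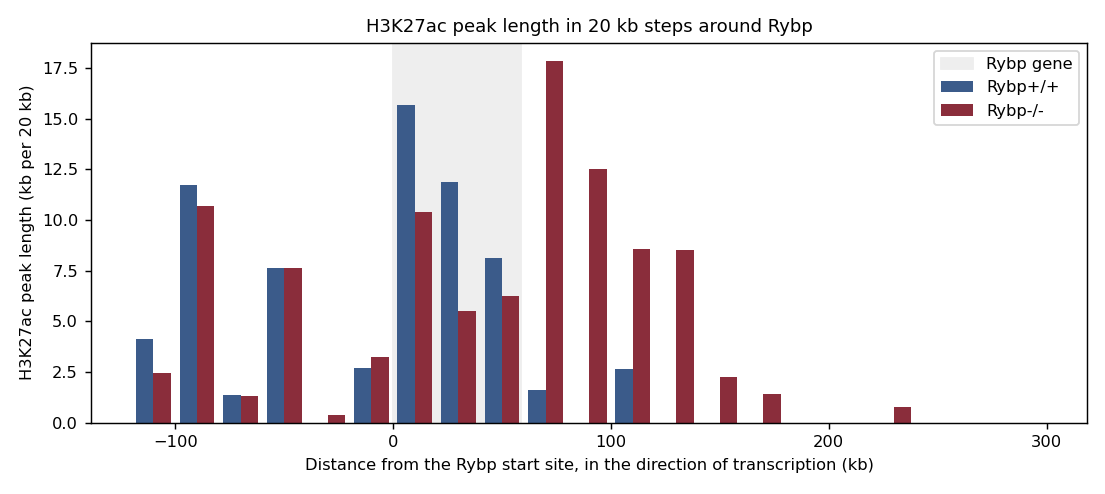
Length covered by H3K27ac peaks in steps of 20 kb around Rybp (kb per 20 kb), by distance from the start site in kb, in Rybp+/+ and Rybp-/- ESCs, with the gene shaded. Within the gene Rybp-/- lies below Rybp+/+, and past it Rybp-/- holds 17851, 12538 and 8593 bp in the first 3 steps against 1616, 0 and 2639 bp.

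RNA of the neighbours was read beside this. The nearest protein-coding gene on the 3′ side is Prok2, the gene of a secreted peptide, 502174 bp away. It stood at 0.24 CPM in Rybp+/+ and 0.82 CPM in Rybp-/- ESCs, a log2 fold change of 1.77 (SE 0.46, edgeR adjusted p = 0.0019), a very low level in both. Shq1, which lies 285640 bp from the 5′ end, had a log2 fold change of -0.02 in the knockout and was not called. It was lower with shRybp (-0.28, edgeR adjusted p = 0.0033), with shWdr5 (-0.58) and in the libraries labelled rTRS DOX (-0.38). The next neighbours of Rybp, Gpr27 and Gxylt2, were higher with shRybp (0.472 and 1.428, edgeR adjusted p = 0.015 and 0.035). Gxylt2 was very low there, at 0.385 CPM in shEV and 1.055 CPM in shRybp. Neither was called in the knockout. Beside Yaf2, Gxylt1, a xylosyltransferase gene whose start lies 9099 bp away, was at 0.02 in the knockout and 0.27 with shRybp (edgeR adjusted p = 0.0016). It was at 0.47 with shWdr5 (edgeR adjusted p = 8.9e-07), where Yaf2 was not called, and at 0.31 in the libraries labelled rTRS DOX. On the 5′ side of Yaf2, Zcrb1 and Pphln1 were at 0.47 and 0.40 with shRybp (edgeR adjusted p = 0.00086 and 0.00015). In the knockout Zcrb1 was not called (0.10) and Pphln1 was at -0.26 (edgeR adjusted p = 3.8e-05), against the direction of Yaf2. Pphln1 was at 0.47 in the libraries labelled rTRS DOX (edgeR adjusted p = 0.00021).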

How the data were processed

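Per the labels and the methods, the authors trimmed reads with Trim Galore, aligned them to mm9 with STAR and counted them per gene with HTSeq, and the deposited tables hold raw counts. The deposited peak lists give each peak's position, its fold enrichment over input (a ratio) and the −log10 of its q value, which the authors wrote with MACS2. For the STAT3 lists and the Tet.Rybp.Stat3 RING1B lists reads were sampled before calling.

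The members and gene lists were chosen with earlier results of these data known. Samples were grouped by their GEO labels. In the RYBP induction table the columns named NTC were taken as the vehicle samples, and in the rTRS table a DOX column with another prefix (S5) as replicate 2. Rows that name no gene held 13.7% to 58.5% of each column in 6 tables and were left out. Each table was fitted on its own with edgeR 4.0.16 (R 4.3.3): filterByExpr, TMM scaling, glmQLFit and glmQLFTest, two-sided, with Benjamini-Hochberg adjustment over all genes tested and a threshold of 0.05. Differences between comparisons were interaction terms in a joint fit. CPM used TMM library sizes, and CPM per kb divides by the union of exons. The filter kept both members in all 7 tables. The code was tested on simulated data. DESeq2 1.42.0, RLE factors, no filter, a replicate block and each library left out were the alternatives. No pair of replicates agreed within sampling noise. List genes are named where they were among the 2 largest called rises or falls with a mean of at least 5 CPM. Matches in the genome were sought with blastn 2.17.0, with those on a further chromosome left out, and exons come from GENCODE vM1.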

Additional observations from a re-analysis of the deposited data

Results flagged for a closer look

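Differences between comparisons stood out for 3 values. The log2 fold change of Rybp differed by 0.873 (SE 0.07) between the knockdown in R1 cells and the knockout in R7.15 cells, with the knockout the lower, by the interaction term of an edgeR fit (adjusted p = 1.2e-09). It held the same sign in all 4 libraries of test cells, each below its controls.

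The log2 fold change of Rybp differed by 2.091 (SE 0.08, edgeR adjusted p = 3e-12) between DOX in J1 cells and the libraries labelled rTRS DOX. Both J1 libraries with DOX were above their controls and both libraries labelled rTRS DOX were below theirs. The log2 fold change of Yaf2 differed by -1.119 (SE 0.22, edgeR adjusted p = 0.00095) in the same pair, with the signs turned round. The cell line also differs between the compared tables and cannot be told apart from the treatment.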

How the results depend on the processing

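No value of Rybp or Yaf2 changed its direction under the alternatives. Of 89 recomputed values of Rybp, 86 kept their side of the threshold and 3 passed it newly. Of 80 values of Yaf2, 70 kept their side and 10 lost a call, all in the knockout and the phase disruption. In the knockout the log2 fold change of Yaf2 was 0.262 by DESeq2 (adjusted p = 0.10), 0.256 without a filter (edgeR adjusted p = 0.079) and 0.208 to 0.313 with a library left out. In the phase disruption it was 0.337 by DESeq2 (adjusted p = 0.22), 0.331 without a filter (edgeR adjusted p = 0.13) and 0.228 to 0.438 with a library left out. Rybp with the TF-AA mutation ranged from -0.278 to -0.101 with a library left out. The same replicate numbers occur in each group, but libraries with the same number did not deviate together (correlations of -0.02 to 0.07), so they share only a number. With the replicate block Rybp passed in the libraries labelled rTRS DOX (-0.152, edgeR adjusted p = 0.0058) and with the TF-AA mutation (-0.184, adjusted p = 0.018). Of 56 counts of genes called, 49 stayed within 1.5 times. With a library left out, the counts ranged from 406 to 1566 genes after RYBP induction (899 with all libraries), where all 4 moved by more. With the TF-AA mutation (4412) they ranged from 2724 to 4767, where only the counts without a mutant library, 2724 and 2733, moved by more. The last was 2980 in the phase disruption by DESeq2 (4814 by edgeR). With a −log10 q of at least 5, 8 lists had a peak at the Yaf2 promoter, in place of 12. Adding the counts of Gm6910 to Rybp moved no call, and this alternative was chosen after seeing the data. The causes were not tested. Where a library is left out, the lone library of its group is taken to vary as the others do. The value of Yaf2 in J1 cells rests on at most 110 counts a library.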
